A study of Rattus norvegicus with 24 samples.

Results

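The livers of rats given the gut bacterium Limosilactobacillus reuteri (L. reuteri) during constant darkness were set against all saline livers of the same experiment, gene by gene. All 24 livers of the series entered, 8 of DL.reuteri rats and 16 of saline rats, and 12142 of the 30958 gene rows passed the filter of at least 0.5 FPKM (fragments per kilobase of transcript and per library size, a level corrected for transcript length) in at least 8 livers. DL.reuteri rats were kept in constant darkness over 8 weeks with 100 mg of L. reuteri a day by gavage. Darkness rats lived in the same constant darkness and received saline, and control rats had 12 h of light a day and received saline. All were female Sprague-Dawley rats that were 14 weeks of age when sampled, having entered the experiment at 6 weeks of age, with 8 in each group. Every DL.reuteri rat was also in darkness, so a difference from control livers covers both the bacterium and the housing, and only a gene that differed in the same direction from darkness and from control livers is described as shifted against both saline groups. The rats were fasted overnight before sampling, and no hour of sampling is given for a rat. Several rats shared a cage, and no cage is given for a rat, so the spread between rats of 1 cage and between cages could not be separated.

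The liver makes cholesterol from acetyl units, turns part of it into bile acids, stores fatty acids as triglycerides in lipid droplets, and folds large amounts of secreted plasma proteins in the endoplasmic reticulum (ER). Cholesterol genes respond to the sterol content of ER membranes, bile acid genes respond to bile acids and to hormones from the intestine, and chaperone genes of the ER respond to unfolded protein. L. reuteri lives in the intestine and not in the liver, and it is given as a probiotic.

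The library of DL.reuteri 3 stood apart from the other 23. Transcripts of the mitochondrial genome took 85.0% of its FPKM, against 18.8% to 50.8% in the other 7 DL.reuteri livers (median 34.2%) and 12.4% to 59.7% in the 16 saline livers (median 41.2%). Its mean level of hepatocyte markers was 8.26 on the log2(FPKM + 1) scale, against 10.4 or more in the other DL.reuteri livers and 10.1 or more in the saline livers. The hepatocyte markers were otherwise at like levels in the groups, with medians of 10.8 in the 7 DL.reuteri livers, 10.6 in darkness livers and 10.7 in control livers, and 1 of 16 passed the test in each direction (Hnf4a higher and Apoa1 lower) without DL.reuteri 3. None of the markers of Kupffer cells, sinusoidal endothelium, stellate cells, cholangiocytes, T and NK cells, B cells, red cells, adipocytes, muscle or pancreas passed the test without DL.reuteri 3, and of the neutrophil markers only Lcn2, which hepatocytes also make, did so. Adipocyte markers were high in 2 livers, at 3.07 in DL.reuteri 2 and 3.19 in control 8, with all others between 0.951 and 1.34. In bulk tissue, fewer cells of a type and less RNA per cell cannot be told apart. Values below leave out DL.reuteri 3 unless all 24 livers are named.

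Without DL.reuteri 3, 1154 genes were higher and 235 were lower in the 7 DL.reuteri livers than in the 16 saline livers, which is 9.5% and 1.94% of the genes tested (limma on log2(FPKM + 1), adjusted p under 0.05). A shift against both saline groups followed a looser rule, the same sign and an unadjusted p under 0.05 in limma against each group. By it 1455 genes (12%) were shifted higher and 318 (2.62%) lower. With all 24 livers 121 genes (0.997%) were higher and 97 (0.799%) lower, and all of them were also called without DL.reuteri 3. Of the genes shifted against both saline groups in all 24 livers, 567 (4.67%) were higher and 430 (3.54%) lower, and 545 and 296 of these had the same shift without DL.reuteri 3. Between darkness and control livers limma called 0 genes, with 472 genes at an unadjusted p under 0.05. Against darkness livers alone, 1066 genes were higher and 147 lower in DL.reuteri livers, and against control livers alone 197 and 54. With all 24 livers these counts were 3 higher and 7 lower against darkness livers, and 5 and 12 against control livers. Nearly all calls against a single saline group thus depended on leaving out DL.reuteri 3. DL.reuteri 8 also weighed on the counts: without it as well, 498 genes were higher and 107 lower. Without DL.reuteri 6 as well 719 were higher, and without DL.reuteri 2 as well 152 were lower.

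How many genes were higher and how many lower depended on the scale of the libraries. Without DL.reuteri 3 the median gene was 0.12 higher in DL.reuteri livers on the log2(FPKM + 1) scale, and 83.1% of the called genes were higher. After median-of-ratios rescaling, which sets the median gene near 0 (0.01), 400 genes (3.29%) were higher and 517 (4.26%) lower, and the higher ones were 43.6% of the called genes. After rescaling to the 75th percentile 442 were higher and 480 lower (47.9% higher). The library term that the Ballgown program adds to its models, the sum of the lower log levels of a library, was 16418 to 17883 in the 7 DL.reuteri livers, against 15044 to 16937 in darkness livers and 15825 to 17000 in control livers. With that term in the limma fit 0 genes were called in either direction, the smallest adjusted p was 0.0968, and 679 genes were higher and 777 lower at an unadjusted p under 0.05. With DL.reuteri 3, whose term was 12221, the same fit called 294 genes higher and 839 lower. The differences below are as fitted on the deposited values, and 0.12 has to be taken off each to read it relative to the median gene. Counts of called genes in the lists below have to be read beside the share of all genes called in the same fit. As deposited without DL.reuteri 3 this was 9.5% higher and 1.94% lower. After median-of-ratios rescaling it was 3.29% and 4.26%, and in all 24 livers 0.997% and 0.799%. Without DL.reuteri 8 as well it was 4.1% and 0.881%.

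**Figure D1:**
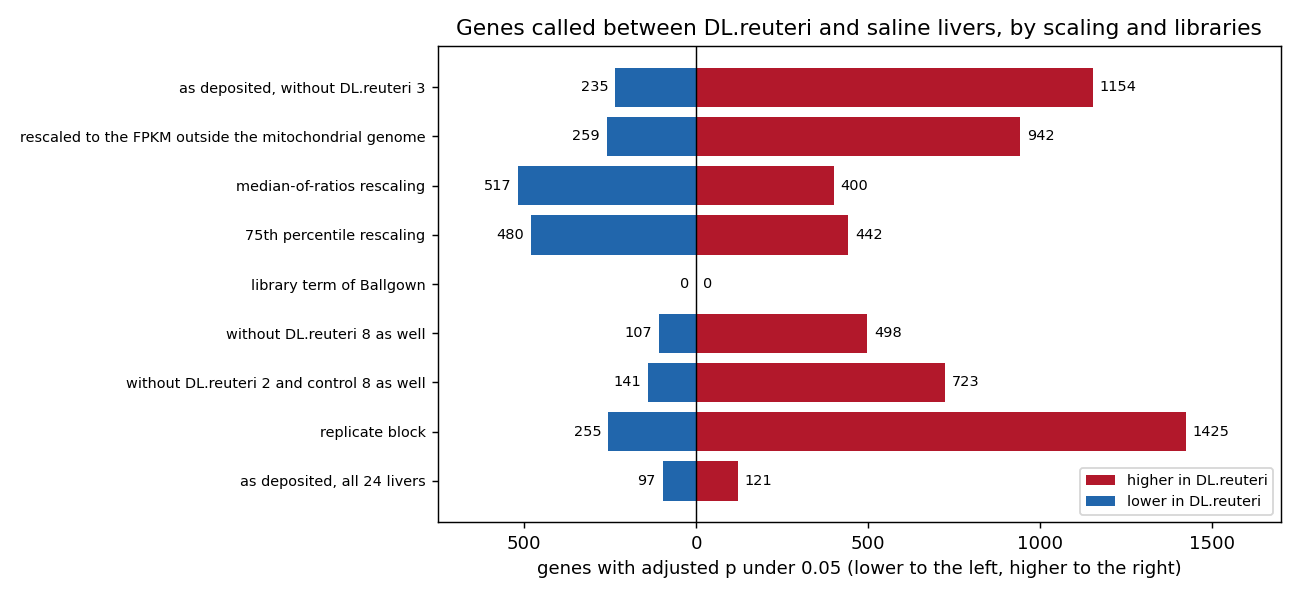
Genes with an adjusted p under 0.05 in limma between DL.reuteri livers and saline livers, drawn to the right of 0 where higher in DL.reuteri and to the left where lower. Each bar is 1 fit, without DL.reuteri 3 except in the lowest bar: as deposited 1154 genes were higher and 235 lower, after median-of-ratios rescaling 400 and 517, with the library term of Ballgown 0 and 0, and in all 24 livers 121 and 97.

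A small set of genes was called with every choice tried in all 24 livers. Of the 121 and 97 genes, 5 higher and 12 lower ones kept an adjusted p under 0.05 under each of the 37 alternative settings, among them each library left out in turn, every rescaling and the library term. With a gene name, Ireb2, Tbx3 and Zfp146 were higher, and Fabp5, Pnpla3, 1 row of Ndufa13, Napa, Sult4a1, Tcea3, Zfp385a, Ppard and Rab11b were among the lower ones. Without DL.reuteri 3, 0 genes were called under each of the 36 settings, because the fit with the library term called none. Separation of the groups was rare as well: in 13 genes (0.107%) all 7 DL.reuteri livers lay above all 16 saline livers, and in 3 genes (0.0247%), Napa, Rab11b and Cideb, all 7 lay below. With a gene name, the 13 held Pik3c2a, Mtmr6, Zfp518b, Smc6, Hnrnpr, Slc30a9, Trpm7, Fam208b, Slc33a1, Gemin4 and Trappc8.

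Enzymes of cholesterol synthesis were among the higher genes. Of 24 measured genes of cholesterol synthesis and uptake, 7 were called higher (Hmgcs1, Idi1, Sqle, Msmo1, Hsd17b7, Fdft1 and Lss) and 1 lower (Insig1), with a median difference of 0.38 over the list against 0.12 over all genes. Hmgcs1, a synthase early in the pathway, had 337, 355, 132, 262, 252, 402 and 344 FPKM in DL.reuteri 1, 2 and 4 to 8 and 68.8 FPKM in DL.reuteri 3, against 59.0 to 251 FPKM in darkness livers (median 74.6) and 72.7 to 162 FPKM in control livers (median 85.7). The difference was 1.61 ± 0.24 (log2, SE, adjusted p = 0.00292), and 6 of the 7 DL.reuteri livers lay above every saline liver. Against darkness livers alone it was 1.65, and against control livers alone 1.57. DL.reuteri 4 lay within the saline range, and darkness 3 was the saline liver with 251 FPKM.

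Other called members lie at separate steps of the pathway, with enzymes of steps between them that did not pass the test. Idi1, which isomerises isopentenyl diphosphate, had 25.7 to 108 FPKM in DL.reuteri livers (median 73.4), against 13.8 to 56.1 in darkness livers (median 19.3) and 18.3 to 36.0 in control livers (median 27.6), a difference of 1.44 ± 0.25 (adjusted p = 0.00313). Sqle, the squalene epoxidase, differed by 1.28 ± 0.23 (adjusted p = 0.00372). Msmo1, a methylsterol oxidase late in the pathway, had 124, 141, 39.8, 75.8, 94.2, 146 and 163 FPKM in DL.reuteri 1, 2 and 4 to 8, against 19.5 to 73.1 FPKM in darkness livers and 24.7 to 69.9 in control livers. In both Hmgcs1 and Msmo1 the DL.reuteri 4 liver lay within the saline range. Insig1, which holds the sterol sensor in the ER, was lower by 0.47 ± 0.14 (adjusted p = 0.0366), at 163 to 283 FPKM in DL.reuteri livers, against 156 to 368 in darkness livers and 231 to 402 in control livers. After median-of-ratios rescaling 5 members were higher and 1 lower, and Fdft1 and Lss were no longer called. In all 24 livers 2 were higher, Hmgcs1 and Idi1, and the list's median was 0.26.

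Cyp7a1 and Cyp8b1, enzymes of bile acid synthesis, were higher as well. Cyp7a1, the rate-limiting enzyme of bile acid synthesis, had 166, 57.6, 51.4, 137, 80.5, 164 and 145 FPKM in DL.reuteri 1, 2 and 4 to 8 and 57.3 FPKM in DL.reuteri 3, against 15.2 to 81.5 FPKM in darkness livers (median 30.3) and 8.95 to 80.7 FPKM in control livers (median 30.1). No DL.reuteri liver was under 51.4 FPKM, and the groups overlapped between there and 81.5 FPKM. The difference was 1.71 ± 0.37 (adjusted p = 0.00661), and it was 1.60 in all 24 livers (adjusted p = 0.0272). Cyp8b1, the sterol hydroxylase that directs synthesis to cholic acid, differed by 1.28 ± 0.24 (adjusted p = 0.00411), with 130 to 314 FPKM in DL.reuteri livers, against 58.8 to 226 in darkness livers and 27.0 to 105 in control livers. Klb, the co-receptor through which an intestinal hormone represses Cyp7a1, was higher by 0.86 ± 0.17 (adjusted p = 0.00411). The canalicular exporter Abcc2 and the uptake carrier Slco1b2 were also called higher. In all, 5 of 25 measured genes of bile acid synthesis and transport were higher and 0 lower, while the list's median, 0.07, lay under that of all genes. After median-of-ratios rescaling 3 were higher and 1 lower, with Cyp7a1, Cyp8b1 and Klb still higher, the list's median was -0.08 and 11 of the 25 differences were positive. Without DL.reuteri 8 as well 3 were higher.

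**Figure D2:**
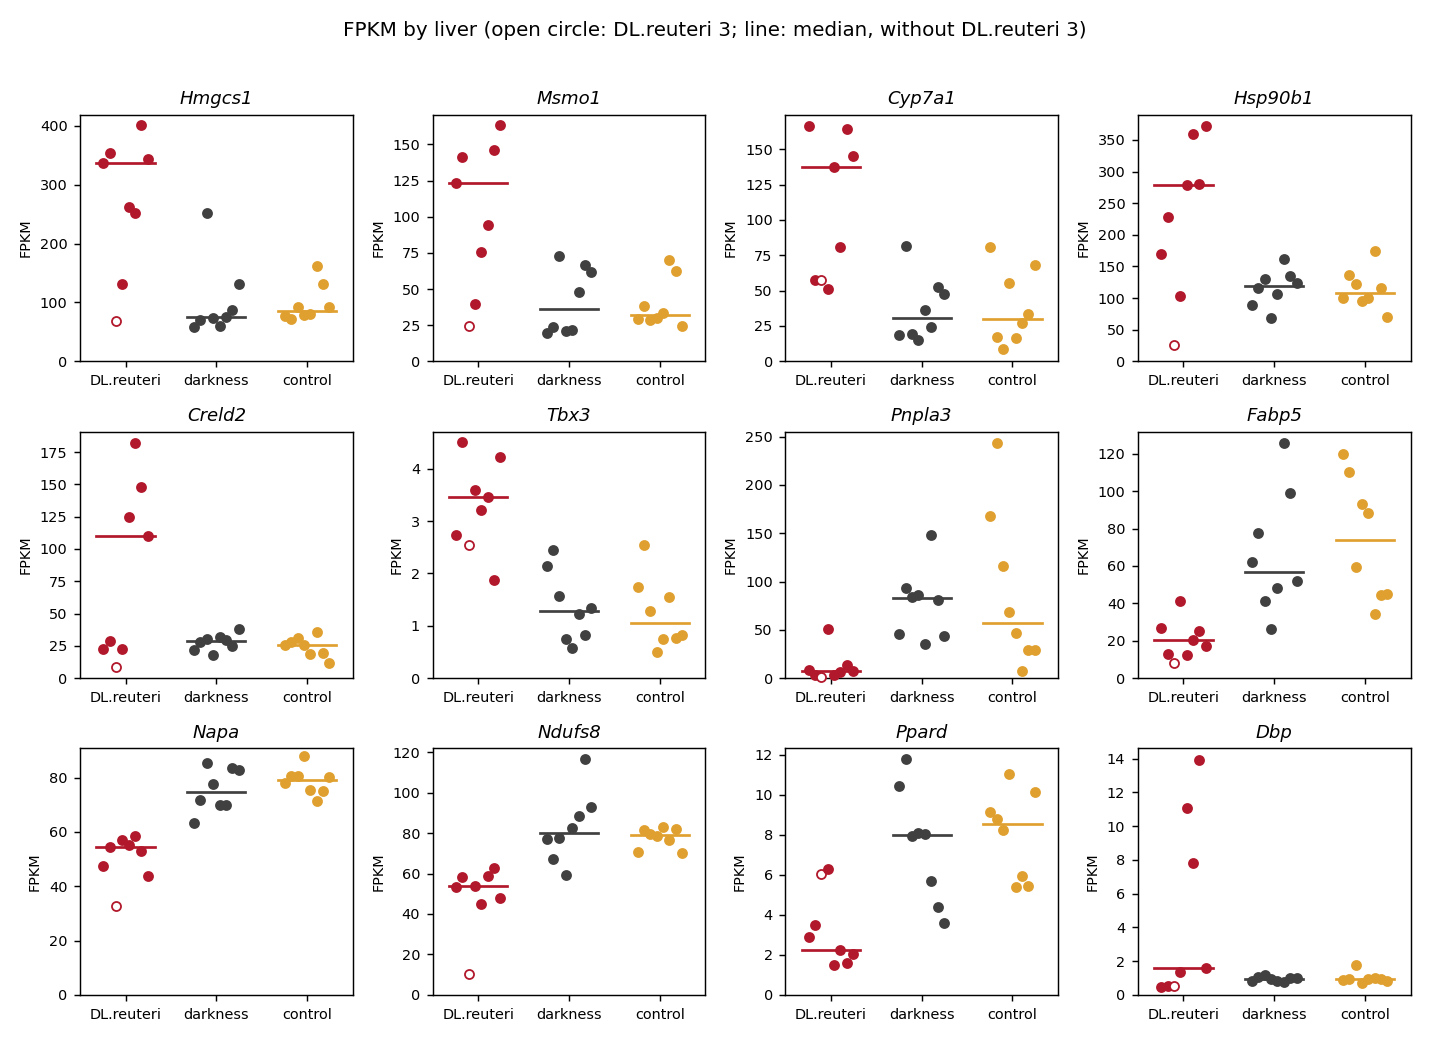
FPKM of 12 genes in each liver (1 point per liver), with DL.reuteri livers at the left, darkness livers in the middle and control livers at the right. Lines are medians without DL.reuteri 3, which is the open circle. Hmgcs1, Msmo1, Cyp7a1, Hsp90b1 and Tbx3 sit higher in DL.reuteri livers, Creld2 and Dbp in some of them only, and Pnpla3, Fabp5, Napa, Ndufs8 and Ppard sit lower.

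Chaperones of the ER were among the higher genes, and their list had the highest median of the 25 function lists. Of 23 measured genes of the ER stress and amino acid response, 8 were called higher (Hsp90b1, Sel1l, Sdf2l1, Creld2, Dnajc3, Pdia3, Hspa5 and Pdia4), 0 lower, and 12 were shifted higher against both saline groups, with a median difference of 0.47. The rise did not cover the whole list, of which 19 differences were positive. Chac1 (-1.11), Sesn2 (-0.61), Ppp1r15a (-0.27) and Ddit3 (-0.05) were below 0, and Asns (0.00), Trib3 (0.25) and Atf4 (0.25) were not called. Hsp90b1, the ER member of the Hsp90 family, had 170, 229, 103, 278, 360, 280 and 372 FPKM in DL.reuteri 1, 2 and 4 to 8 and 25.6 FPKM in DL.reuteri 3, against 68.1 to 162 FPKM in darkness livers (median 120) and 69.8 to 174 FPKM in control livers (median 109). Its difference was 1.08 ± 0.21 (adjusted p = 0.00411), and 5 of 7 DL.reuteri livers lay above every saline liver. Hspa5, the ER Hsp70 known as BiP, had 132 to 792 FPKM in DL.reuteri livers (median 398), against 91.0 to 353 in darkness livers (median 188) and 105 to 389 in control livers (median 189), a difference of 0.97 ± 0.30 (adjusted p = 0.0377).

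Creld2, an ER protein released during ER stress, split the DL.reuteri livers. It had 125, 182, 148 and 110 FPKM in DL.reuteri 5 to 8, and 22.4, 28.4 and 22.8 FPKM in DL.reuteri 1, 2 and 4, against 17.9 to 37.9 FPKM in darkness livers and 12.0 to 36.1 FPKM in control livers. DL.reuteri 1, 2 and 4 were thus inside the saline range. Hyou1, another ER chaperone, had a like pattern, with 80.0 to 110 FPKM in DL.reuteri 5 to 8 and 22.0 to 39.5 in DL.reuteri 1, 2 and 4, against 18.9 to 36.6 in darkness livers and 17.4 to 49.8 in control livers. The oxidases that supply disulfide bonds to ER proteins were higher too: Ero1l by 0.90 ± 0.15 (adjusted p = 0.00313) and Ero1lb by 1.24 ± 0.22 (adjusted p = 0.00328). Ero1lb had 16.8 to 42.4 FPKM in DL.reuteri livers, against 4.05 to 18.9 in darkness livers and 6.71 to 17.9 in control livers. In all 24 livers 0 genes of the ER list were called and its median was 0.22, after median-of-ratios rescaling 5 were higher, and without DL.reuteri 8 as well 4. With the library term of Ballgown Hsp90b1 had a difference of 0.74 (unadjusted p = 0.0156) and Creld2 of 0.64 (unadjusted p = 0.159).

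The promoters of 4 called members hold the ER stress response element, and they are shown because all 4 genes were higher in DL.reuteri livers. The element was searched as CCAAT and CCACG with 9 free bases between them on both strands of the 250 bases before the start in the RefSeq promoters (build GRCr8), where 20 of the 23 measured members matched an entry. It occurred in 6 of these 20 promoters, those of Hsp90b1, Creld2, Dnajc3, Hspa5, Calr and Xbp1, and in 22 of all 33469 promoters (0.0657%). The sequences run 5′ to 3′ on the strand of the gene, and capitals mark the element. They lie at chr7:23012294-23012543 (minus strand), chr7:121789134-121789383 (plus), chr15:102432417-102432666 (plus) and chr3:38452766-38453015 (plus).
Hsp90b1: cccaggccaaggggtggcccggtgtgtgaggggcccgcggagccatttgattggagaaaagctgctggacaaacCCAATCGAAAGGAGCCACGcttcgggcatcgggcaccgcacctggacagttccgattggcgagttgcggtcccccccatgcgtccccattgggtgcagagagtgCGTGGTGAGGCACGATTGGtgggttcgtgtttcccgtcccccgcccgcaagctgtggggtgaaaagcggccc
Creld2: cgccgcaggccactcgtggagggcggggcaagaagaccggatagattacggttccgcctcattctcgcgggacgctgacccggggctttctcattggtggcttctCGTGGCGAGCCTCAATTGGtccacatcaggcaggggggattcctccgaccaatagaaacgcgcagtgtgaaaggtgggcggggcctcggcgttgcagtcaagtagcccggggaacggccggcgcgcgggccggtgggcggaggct
Dnajc3: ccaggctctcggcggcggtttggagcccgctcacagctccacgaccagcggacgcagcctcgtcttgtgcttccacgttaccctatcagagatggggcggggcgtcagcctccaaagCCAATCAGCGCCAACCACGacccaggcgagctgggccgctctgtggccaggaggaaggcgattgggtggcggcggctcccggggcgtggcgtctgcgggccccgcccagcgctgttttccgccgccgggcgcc
Hspa5: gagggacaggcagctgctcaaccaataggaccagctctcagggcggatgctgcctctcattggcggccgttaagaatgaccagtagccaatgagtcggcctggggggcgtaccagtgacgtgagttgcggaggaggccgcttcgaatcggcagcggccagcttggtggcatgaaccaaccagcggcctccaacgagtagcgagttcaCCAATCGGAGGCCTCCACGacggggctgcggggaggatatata
Hsp90b1 has a match on each strand, and the match of Creld2 lies on the opposite strand. The 22 promoters covered 14 tested genes, matched by symbol, of which 6 were called higher, 0 lower and 8 were shifted higher against both saline groups, with a median difference of 0.54. Over all genes 9.5% were called higher and 12% were shifted higher against both groups. The 14 include all 6 list members that hold the element, 4 of them shown here because they were higher. The list was chosen with earlier results known, so these counts and the median are no support for the element. In all 24 livers 0 of the 14 were called in limma, the lowest adjusted p being 0.126. Besides the list's members the 6 called genes included Hnrnpa3, at 0.85 (adjusted p = 0.00399), and Ppm1l, at 0.67 (adjusted p = 0.0094). The other genes outside the list were not called: Canx (0.69), Zfand2a (0.37), Ankmy2 (0.21), Zfp57 (0.03), Pan2 (-0.01) and Birc5 (-0.06). A sterol regulatory element, searched as TCACNCCAC, was in 0 of the 16 promoters matched among the 24 cholesterol genes and in 326 of all promoters (0.974%), which says only that these letters are not in those windows.

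Cytosolic chaperones and their partners were also among the higher genes. Of 17 measured genes of heat shock and cold-inducible proteins, 5 were called higher (Chordc1, Hsph1, Dnaja1, Dnajb1 and Bag3) and 0 lower, with a median of 0.41, and after median-of-ratios rescaling 4 were higher. Hsph1, a nucleotide exchange factor of Hsp70, had 20.4, 27.5, 11.9, 37.7, 40.6, 33.8 and 52.3 FPKM in DL.reuteri 1, 2 and 4 to 8, against 8.57 to 16.6 in darkness livers and 7.37 to 31.7 in control livers. All but DL.reuteri 4 lay above every darkness liver, and 4 of 7 lay above every saline liver. In all 24 livers 0 of the list were called. Proteasome subunits, which degrade proteins, had 4 called higher of 31, beside 9.5% of all genes, and a median of 0.18 without DL.reuteri 3. The median of these subunits was -0.09 in all 24 livers and 0.04 after median-of-ratios rescaling, so their direction depended on the library and the scale.

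Genes that Wnt signals switch on around the central vein of the liver lobule were among the higher ones. Of 12 measured pericentral Wnt targets 5 were called higher (Tbx3, Rnf43, Axin2, Glul and Slc1a2) and 0 lower, with a median of 0.43. Tbx3, a transcription factor, had 2.74, 4.51, 3.59, 3.21, 3.46, 1.87 and 4.22 FPKM in DL.reuteri 1, 2 and 4 to 8 and 2.54 FPKM in DL.reuteri 3, against 0.570 to 2.45 FPKM in darkness livers (median 1.29) and 0.504 to 2.55 FPKM in control livers (median 1.05). The difference was 0.95 ± 0.17 (adjusted p = 0.00328) and 0.92 in all 24 livers (adjusted p = 0.011), and only DL.reuteri 7 and DL.reuteri 3 lay within the saline range. Axin2 and Rnf43, both feedback inhibitors of Wnt signalling, differed by 0.54 ± 0.15 (adjusted p = 0.0214) and 0.62 ± 0.12 (adjusted p = 0.00493). Glul, the glutamine synthetase of pericentral hepatocytes, had 80.7 to 216 FPKM in DL.reuteri livers, against 56.7 to 134 in darkness livers and 62.2 to 151 in control livers. In all 24 livers Tbx3 and Axin2 were called, and after median-of-ratios rescaling Tbx3 and Rnf43. The call of Axin2 in all 24 livers was lost under 16 of the 37 alternative settings. Without DL.reuteri 8 as well 2 of the 12 were called.

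Several genes of triglyceride and fatty acid handling fell. Pnpla3, a lipid droplet protein and lipase that is switched on by feeding, had 7.90, 3.00, 51.3, 3.17, 6.08, 13.1 and 7.73 FPKM in DL.reuteri 1, 2 and 4 to 8 and 1.59 FPKM in DL.reuteri 3, against 35.8 to 148 FPKM in darkness livers (median 82.5) and 7.34 to 243 FPKM in control livers (median 57.1). All DL.reuteri livers but DL.reuteri 4 lay below every darkness liver, while control livers reached down to 7.34 FPKM. Pnpla3 fell by 2.75 ± 0.51 on the log2 scale (adjusted p = 0.00399), by 2.91 against darkness livers and by 2.60 against control livers. Its relative Pnpla5 fell by 1.93 ± 0.46 (adjusted p = 0.0103). Sult4a1, a sulfotransferase best known from brain, had 0.189 to 0.733 FPKM in 6 DL.reuteri livers and 8.72 FPKM in DL.reuteri 4, against 6.09 to 16.3 in darkness livers and 0.575 to 26.6 in control livers. It fell by 2.18 ± 0.45 (adjusted p = 0.00514).

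Fabp5, a fatty acid carrier, had 26.9, 12.7, 41.3, 12.3, 20.2, 25.2 and 17.3 FPKM in DL.reuteri 1, 2 and 4 to 8 and 7.81 FPKM in DL.reuteri 3, against 26.4 to 126 FPKM in darkness livers (median 57.0) and 34.1 to 120 FPKM in control livers (median 73.9). It fell by 1.59 ± 0.28 (adjusted p = 0.00328), and 5 of 7 DL.reuteri livers lay below every saline liver. Ppard, a nuclear receptor that fatty acids activate, had 1.51 to 6.30 FPKM in DL.reuteri livers (median 2.25), against 3.57 to 11.8 in darkness livers (median 7.99) and 5.40 to 11.1 in control livers (median 8.52), and fell by 1.21 ± 0.20 (adjusted p = 0.00313). Of 29 measured genes of fatty acid and triglyceride synthesis 4 were called lower (Pnpla3, Cideb, Me1 and Acacb) and 0 higher, beside 1.94% lower over all genes. In all 24 livers also 4 were lower and after median-of-ratios rescaling 5, and the list's median was -0.19 without DL.reuteri 3. Of these calls in all 24 livers, that of Acacb (adjusted p = 0.0468 in limma) was lost under 22 of the 37 alternative settings. Cideb, which loads lipid onto secreted lipoprotein, had 61.6 to 82.4 FPKM in DL.reuteri livers, against 87.6 to 122 in darkness livers and 83.0 to 114 in control livers. Its fall was small, by 0.42 ± 0.09 (adjusted p = 0.00549), but the groups did not overlap. Me1, which supplies NADPH, fell by 0.79 ± 0.21 (adjusted p = 0.0172). Acacb, which makes malonyl-CoA, also fell (adjusted p = 0.0319), with 2.57 to 23.3 FPKM in DL.reuteri livers, against 10.2 to 27.7 in darkness livers and 7.84 to 31.5 in control livers. Of 28 measured genes of fatty acid oxidation and ketone production none was called in limma without DL.reuteri 3, and their median was -0.02.

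Nuclear genes of the respiratory chain were among the lower ones, by small steps. Of 67 measured subunits 19 were called lower and 0 higher, 23 were shifted lower against both saline groups, and the median was -0.26. Over all genes 1.94% were called lower and 2.62% were shifted lower against both groups. After median-of-ratios rescaling 35 of the subunits were lower, beside 4.26% of all genes. Without DL.reuteri 8 as well 8 were lower, and in all 24 livers 4. Ndufs8, a subunit of complex I, had 53.3, 58.2, 54.0, 45.1, 59.0, 62.7 and 47.9 FPKM in DL.reuteri 1, 2 and 4 to 8, against 59.1 to 117 in darkness livers (median 79.9) and 70.4 to 83.2 in control livers (median 79.0). It fell by 0.55 ± 0.11 (adjusted p = 0.00411), and 6 of 7 DL.reuteri livers lay below every saline liver. Atp5e, a small subunit of ATP synthase, fell by 0.69 ± 0.15 (adjusted p = 0.00643). The 13 transcripts of the mitochondrial genome itself were not called, with a median of -0.27 without DL.reuteri 3 and 0.01 with it. Of 64 ribosomal protein genes none was called as deposited, and 9 were lower after median-of-ratios rescaling, beside 4.26% of all genes.

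Napa and Rab11b were 2 of the 3 lower genes whose groups did not overlap. Napa, which takes apart membrane fusion complexes, had 47.3, 54.5, 57.0, 55.2, 58.5, 53.1 and 43.7 FPKM in DL.reuteri 1, 2 and 4 to 8 and 32.8 FPKM in DL.reuteri 3, against 63.4 to 85.3 FPKM in darkness livers (median 74.7) and 71.5 to 88.0 FPKM in control livers (median 79.1). The groups did not overlap, and Napa fell by 0.54 ± 0.08 (adjusted p = 0.00292). Rab11b, a GTPase of recycling vesicles, had 21.4 to 32.5 FPKM in DL.reuteri livers, against 33.9 to 50.2 in darkness livers and a median of 40.8 in control livers, also with no overlap. Tmem86b, Ppdpf, Pnrc1, Taf10 and Nmral1 fell by 0.56 to 0.73, with adjusted p between 0.00328 and 0.00418, and in each 4 to 6 of 7 DL.reuteri livers lay below every saline liver. Hamp, the iron hormone hepcidin, fell by 0.90 ± 0.25 (adjusted p = 0.0246) with a wide spread, at 684.6 to 3823 FPKM in DL.reuteri livers, and DL.reuteri 6, at 3823 FPKM, lay above all saline livers, which had 1409 to 3636 FPKM.

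Ireb2, which controls iron genes by binding their mRNA, was the gene with the lowest p among the higher ones. It had 13.2, 12.3, 7.61, 11.4, 10.5, 10.8 and 14.5 FPKM in DL.reuteri 1, 2 and 4 to 8 and 6.67 FPKM in DL.reuteri 3, against 3.99 to 7.54 FPKM in darkness livers (median 5.25) and 4.53 to 8.36 FPKM in control livers (median 5.63). The difference was 0.88 ± 0.13 (adjusted p = 0.00292), and 6 of 7 livers lay above every saline liver. Other genes of low p were Mob1b, a regulator of Hippo kinases, Rock1, a kinase of the actin skeleton, Pik3c2a and Mtmr6, enzymes that add or remove phosphate on membrane lipids, Naa15, a subunit of the N-terminal acetylase, Magt1, Gcc2, Syncrip and Zfp597. Their differences ran between 0.53 and 0.90, and their adjusted p values were 0.00292 or 0.00313. In all 24 livers Ireb2, Naa15, Mtmr6, Gcc2, Syncrip and Zfp597 were called. Rock1 (adjusted p = 0.125 in limma), Magt1 (0.116), Mob1b (0.0549) and Pik3c2a (0.0513) were not. Pik3c2a had 3.50 to 5.52 FPKM in DL.reuteri livers, against 1.22 to 2.61 in darkness livers and 1.55 to 3.03 in control livers. DL.reuteri 3, at 1.35 FPKM, was the liver that overlapped with saline.

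Clock genes moved in different directions. Of 21 measured genes 3 were called higher (Dbp, Per3 and Tef), beside 9.5% of all genes, and Npas2 was among those called lower. Dbp, an output factor of the clock, had 11.1, 7.82 and 13.9 FPKM in DL.reuteri 5 to 7 and at most 1.58 FPKM in DL.reuteri 1, 2, 4 and 8, against 0.775 to 1.16 in darkness livers and 0.677 to 1.76 in control livers. The same 3 livers were high in Per3, a clock repressor, with 6.44, 4.27 and 6.09 FPKM, against 0.239 to 0.755 in darkness livers and 0.246 to 2.42 in control livers. Tef, a relative of Dbp, had 5.68, 4.76 and 6.30 FPKM in these livers, against 1.44 to 2.00 in darkness livers and 1.13 to 3.69 in control livers. In each of these genes the 3 highest of all 24 livers were DL.reuteri 5 to 7. In all 24 livers 0 clock genes were called higher, with adjusted p of 0.135 for Dbp, 0.124 for Per3 and 0.087 for Tef. After median-of-ratios rescaling 2 of the list were higher, Per3 and Tef, and Dbp was no longer called (adjusted p = 0.0554 in limma). With Ballgown's term in the limma fit the unadjusted p was 0.37 for Dbp, 0.348 for Per3 and 0.295 for Tef. Npas2, an activator of the clock, had 4.05 to 16.3 FPKM in DL.reuteri livers, against 6.71 to 21.3 in darkness livers and 9.05 to 19.3 in control livers, and fell by 0.87 ± 0.22 (adjusted p = 0.0154). DL.reuteri 3 had 13.9 FPKM of Npas2, and in all 24 livers the gene was not called (adjusted p = 0.0779 in limma).

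**Figure D3:**
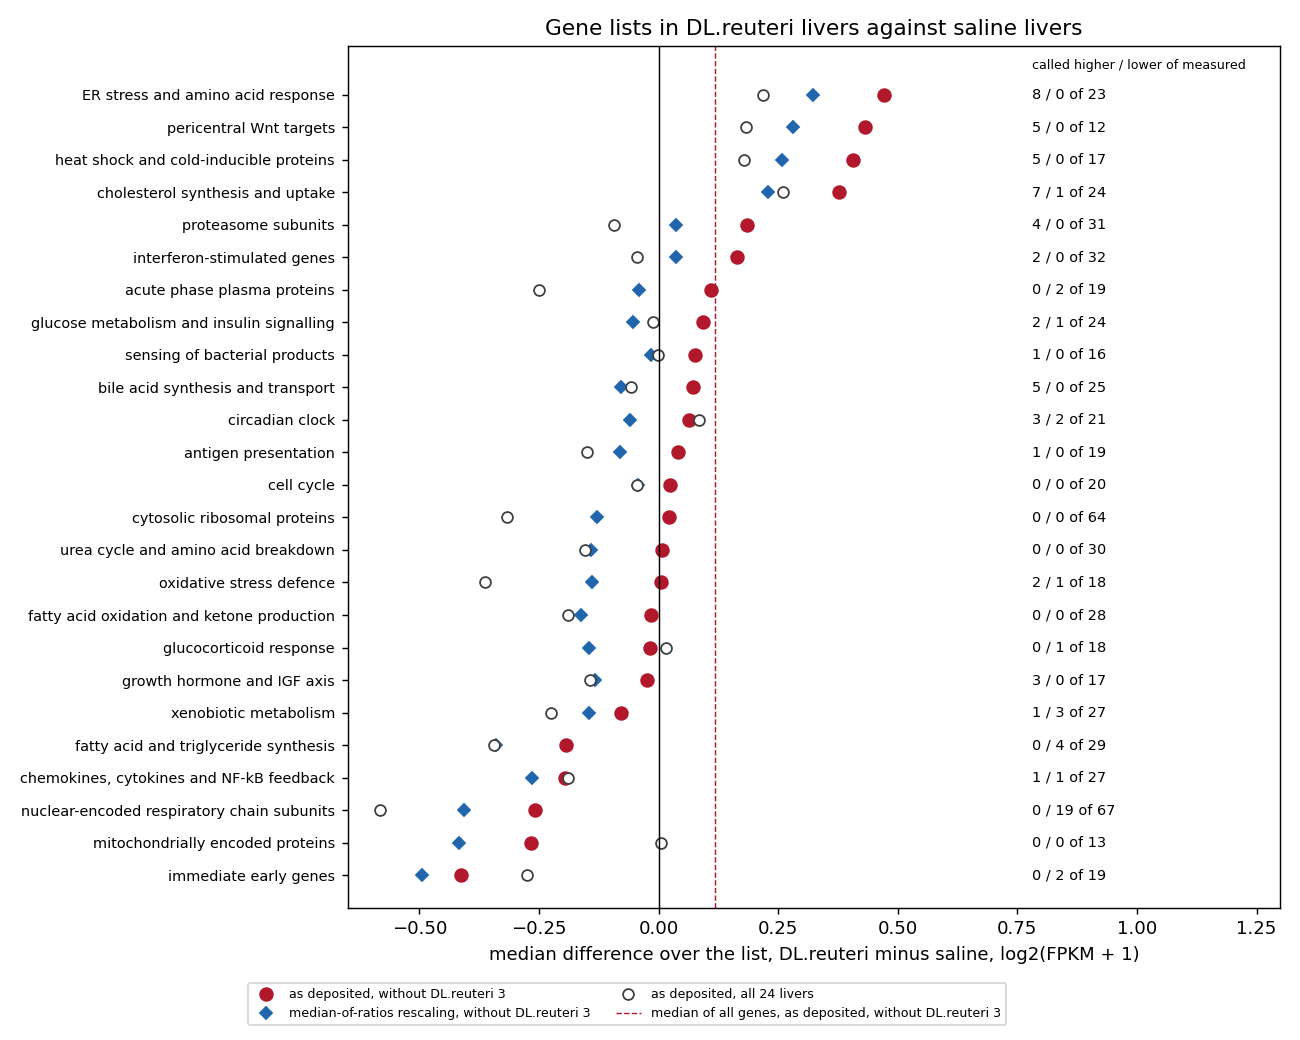
Median difference between DL.reuteri and saline livers over the measured genes of each of 25 lists (log2(FPKM + 1) scale), as deposited without DL.reuteri 3 (filled circles), after median-of-ratios rescaling (diamonds) and in all 24 livers (open circles), with the counts of called genes at the right. The dashed line is the median of all genes, 0.12. The ER, pericentral, heat shock and cholesterol lists stay above 0 in all 3. The respiratory chain and triglyceride lists stay below 0, as do the immediate early, chemokine, xenobiotic, growth hormone and fatty acid oxidation lists.

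The other lists held few called genes. Of 27 chemokine, cytokine and NF-kB genes Cxcl12, a chemokine of endothelium and stroma, was higher by 0.76 ± 0.16 (adjusted p = 0.00623) and Icam1, a leukocyte adhesion molecule, was lower by 0.56 ± 0.17 (adjusted p = 0.0354). Of 16 genes that sense bacterial products Irak1 was called higher, of 32 interferon-stimulated genes 2 (Ifih1 and Parp14), and of 19 antigen presentation genes Erap1, which are shares near or under the 9.5% of all genes. The calls of Irak1 and Erap1 were lost after median-of-ratios rescaling, and in all 24 livers none of these 3 lists had a called gene in limma. Of 19 acute phase genes Hamp and Lcn2 were lower, and 0 were called without DL.reuteri 8 as well. Immediate early genes had 2 called lower of 19, Jund and Ier5, and a median of -0.41, with 0 called higher. DL.reuteri 8 weighed on this list: without it as well 0 were called in limma and the median was -0.18, and the fit with Ballgown's term gave a median of 0.00. Jund had 19.6 to 72.3 FPKM in DL.reuteri livers (median 38.0), against 49.7 to 145 in darkness livers (median 71.8) and 60.9 to 169 in control livers (median 87.5).

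Receptors of hormones and growth factors were among the single higher genes. In the growth hormone and IGF list 3 of 17 were higher: Ghr, the growth hormone receptor, by 0.51 ± 0.12 (adjusted p = 0.0117), its kinase Jak2 by 0.34 ± 0.09 (adjusted p = 0.0236) and Onecut1 by 1.37 ± 0.41 (adjusted p = 0.0314). The list's median, -0.03, lay under that of all genes, of which 9.5% were called higher. After median-of-ratios rescaling 0 of the 17 were called in limma, with adjusted p of 0.0615 for Ghr, 0.0866 for Jak2 and 0.0669 for Onecut1, and in all 24 livers 0 were called. Lifr, the receptor of leukemia inhibitory factor, had 42.9, 192, 29.5, 99.3, 113, 105 and 158 FPKM in DL.reuteri 1, 2 and 4 to 8, against 7.18 to 67.0 in darkness livers and 13.3 to 73.2 in control livers. Lifr differed by 1.52 ± 0.39 (adjusted p = 0.0165), and 5 of 7 livers lay above every saline liver. In all 24 livers it was not called (adjusted p = 0.123 in limma) and not shifted against both saline groups. After median-of-ratios rescaling it was still called (adjusted p = 0.0305). With Ballgown's term its difference was 0.46 (unadjusted p = 0.341). In the glucose and insulin list Irs1, an adaptor of the insulin receptor, and Foxo1, a factor that insulin holds out of the nucleus, were higher, by 0.54 ± 0.16 (adjusted p = 0.0285) and 0.59 ± 0.15 (adjusted p = 0.0134), and Gckr, the regulator of glucokinase, fell by 0.53 ± 0.13 (adjusted p = 0.0114). In the glucose and insulin list 1 gene was higher and 1 lower after median-of-ratios rescaling, and none was called in all 24 livers in limma. Of the genes named, Irs1, Onecut1, Lcn2, Ier5 and Apoa1 were not shifted against both saline groups. Of 18 genes of oxidative stress defence Nfe2l2 and Txnrd1 were higher and Cat lower as deposited. After median-of-ratios rescaling 0 were higher (adjusted p in limma of 0.41 for Nfe2l2 and 0.117 for Txnrd1). By that rescaling 4 of the 18 were lower, beside 4.26% of all genes, and in all 24 livers limma called 0. Of the xenobiotic list 1 was higher and 3 lower, of the glucocorticoid list Cdkn1a was lower, and in the cell cycle and urea cycle lists limma called none as deposited.

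**Figure D4:**
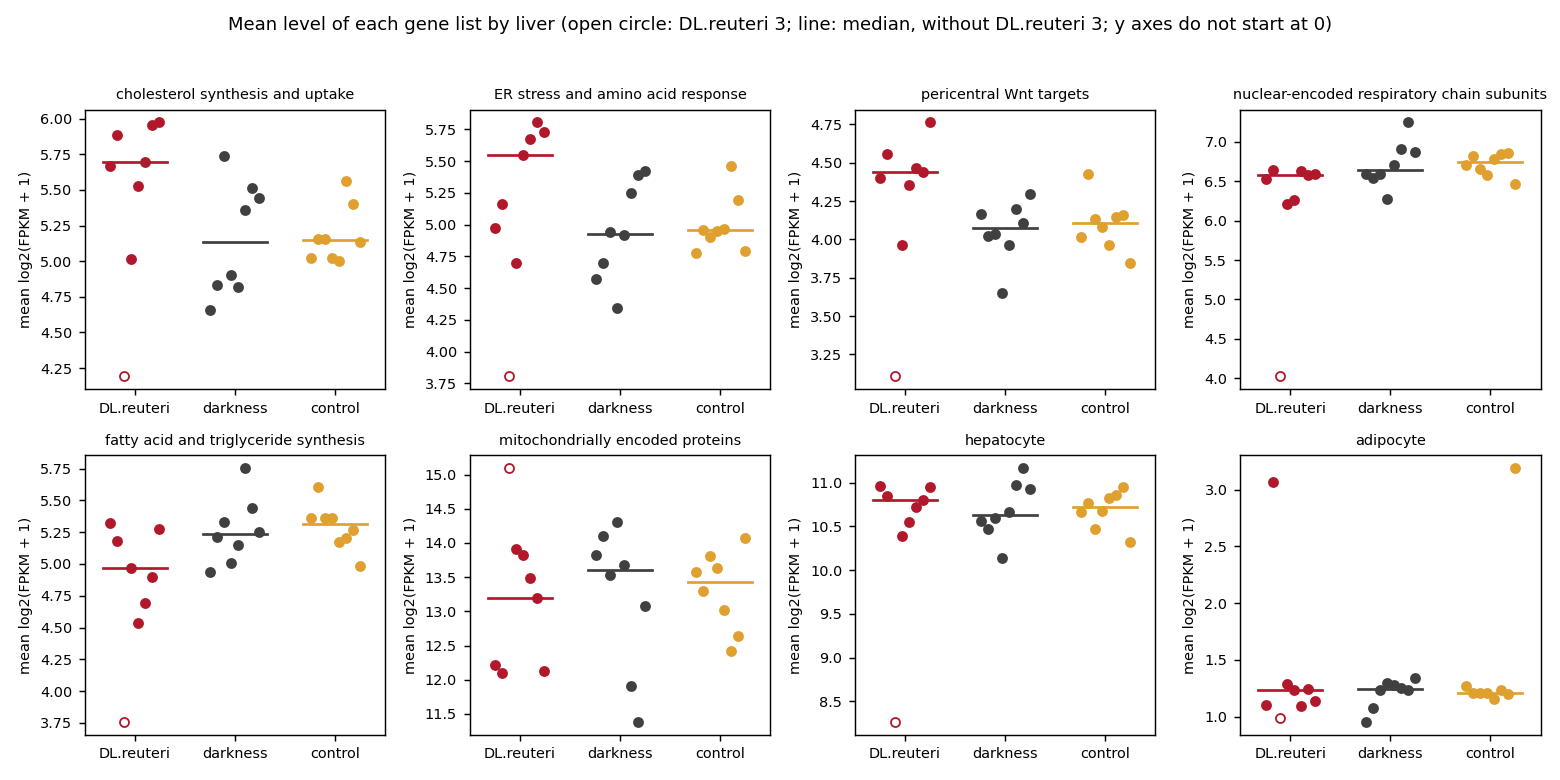
Mean log2(FPKM + 1) over the genes of 8 lists in each liver, with DL.reuteri livers at the left, darkness livers in the middle and control livers at the right. Lines are medians without DL.reuteri 3 (open circle), which was low in the nuclear lists and high in the mitochondrially encoded one. The medians of the cholesterol list were 5.69 in DL.reuteri livers, 5.13 in darkness livers and 5.15 in control livers, with overlapping ranges.

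At the level of whole lists the groups overlapped. The mean level of the ER list was 4.69 to 5.81 in the 7 DL.reuteri livers, against 4.34 to 5.42 in darkness livers and 4.78 to 5.46 in control livers, and DL.reuteri 5 to 8 were the 4 highest of all. The pericentral list had 3.96 to 4.76 in DL.reuteri livers, against 3.65 to 4.30 in darkness livers and 3.84 to 4.42 in control livers. Respiratory chain subunits had 6.22 to 6.65 in DL.reuteri livers, against 6.28 to 7.25 in darkness livers and 6.46 to 6.86 in control livers, and 4.02 in DL.reuteri 3. DL.reuteri 4, which was nearest to saline in Hmgcs1, Pnpla3, Sult4a1 and Fabp5, raised the counts when it was left out, to 1604 higher and 298 lower genes. The 85 genes that were followed through all settings were all called without DL.reuteri 3, the fit from which they were chosen. Of these, 66 were also called after median-of-ratios rescaling.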

How the data were processed

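Liver RNA of 24 rats was sequenced, and 1 table of FPKM per gene and liver was used. The authors trimmed reads with Seqtk, aligned them with HISAT2 2.0.4 to Rnor_6.0 and deposited FPKM values made with StringTie. FPKM corrects for transcript length and for the library total, so a library with much mitochondrial RNA has lower values for all other genes. Read counts and depths were not given in the sources used here, so counting error could not be computed, and all columns were used (0 left out).

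From these values log2(FPKM + 1) was fitted with limma 3.58.1 (R 4.3.3) with 1 mean per group and a trended variance. DL.reuteri livers were compared with the average of the darkness and control means, and p-values were adjusted over all 12142 genes by Benjamini-Hochberg. A gene was called at an adjusted p under 0.05. A shift against both saline groups meant the same sign and an unadjusted p under 0.05 against darkness and against control livers. 9 filtered rows were not analysed, and some genes are not reported here. The errors given are standard errors of the log2 differences. The fit was tested on simulated data.

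The comparison, the lists (25 of functions, 12 of cell types) and the genes were chosen with earlier results of these data known. Genes were named by rule: the 12 in each direction with the lowest p without DL.reuteri 3 among those shifted against both groups with and without it and averaging at least 1 FPKM, and up to 3 per list. Msmo1, Hspa5, Creld2, Ero1lb, Hyou1, Glul, Pnpla5, Acacb, Dbp, Per3, Rab11b, Lifr, Sult4a1, the remaining called list members, the genes called under every setting and those whose groups did not overlap were chosen after their values were seen, as was the count of genes with the ER element. Cox6b1 and Ndufa13 met the rule but have 2 rows each, so they are not described. The p-values measure the spread between these rats. Promoters came from the RefSeq table (GRCr8). Settings tried were another pseudocount, other filters, 3 rescalings, saline as 1 group, the Ballgown library term, mitochondrial share and adipocyte markers as covariates, array weights, a replicate block and libraries left out.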

Additional observations from a re-analysis of the deposited data

Results flagged for a closer look

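In 35 of 294 groups of 8 values (the genes followed, the marker levels and the mitochondrial share, in each group of rats), 1 liver lay farther from its group than Dixon's 95% limit allows, and chance flags about 1 in 20 groups. DL.reuteri 3 was the liver in 12 of them. Its mean marker levels on the log2(FPKM + 1) scale were 8.26 for hepatocytes, 1.92 for Kupffer cells and macrophages, 0.299 for cholangiocytes and 1.02 for pancreatic acinar cells, each the lowest of the DL.reuteri livers, and 4.07 for red cells, the highest. It had the lowest FPKM of its group in Cideb (30.9), Ndufs8 (10.2), Ndufb2 (12.2), Tmem86b (14.3), Rock1 (3.71), Mtmr6 (2.43) and Psmd6 (9.77).

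DL.reuteri 4 was the highest of its group in Pnpla3, at 51.3 FPKM with the next liver at 13.1, and in Sult4a1, at 8.72 FPKM with the next at 0.733. DL.reuteri 2 was high in adipocyte markers (3.07, next 1.29) and in muscle markers (0.404, next 0.242), and DL.reuteri 1 in Cdkn1a (13.4 FPKM, next 7.40). Darkness 3 was the highest darkness liver in 3 cholesterol genes, with 251 FPKM of Hmgcs1, 29.9 FPKM of Sqle and 9.45 FPKM of Hsd17b7.

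Darkness 7 was the highest of its group in Cyp8b1 (226 FPKM), Ndufb2 (176 FPKM), Taf10 (56.2 FPKM), Jund (145 FPKM) and Cdkn1a (18.3 FPKM) and the lowest in Pik3c2a (1.22 FPKM). Darkness 1 was the lowest in Insig1 (156 FPKM), and darkness 4 the lowest in Rock1 (5.20 FPKM). Among control livers, control 8 was high in adipocyte markers (3.19, next 1.27), control 1 in Acacb (31.5 FPKM), control 3 in Dbp (1.76 FPKM) and Per3 (2.42 FPKM), control 4 in Jund (169 FPKM), and control 6 in Magt1 (14.6 FPKM) and Txnrd1 (35.2 FPKM).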

How the results depend on the processing

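Without DL.reuteri 3, the 1154 higher and 235 lower genes became 400 and 517 after median-of-ratios rescaling (against both saline groups 717 and 778), 442 and 480 after 75th percentile rescaling (775 and 710), 0 and 0 under the Ballgown library term (285 higher against both, and at an unadjusted p under 0.05 in limma 679 higher and 777 lower), 2238 and 591 with the mitochondrial share as a covariate (579 lower against both), 1966 and 354 with array weights, and 723 and 141 without control 8 and DL.reuteri 2. Leaving out 1 more library gave 498 to 1604 higher and 107 to 298 lower genes, and against both groups 1092 to 1804 and 253 to 376. With all 24 livers, the 121 higher genes became 55 with a pseudocount of 0.1, and the 97 lower ones became 62 with no filter. They became 1165 and 268 after rescaling to the FPKM outside the mitochondrial genome (1542 higher against both), 319 and 486 after median-of-ratios rescaling (758 lower against both), 314 and 446 after 75th percentile rescaling (730 lower against both), 294 and 839 under the Ballgown term (1055 lower against both), 913 and 639 with the mitochondrial share (1050 and 801 against both), 1769 and 337 with array weights (1820 higher against both), and 14 and 18 without control 8 and DL.reuteri 2. Leaving out 1 of the 24 gave 7 (without DL.reuteri 8) to 1154 (without DL.reuteri 3) higher and 16 to 235 lower genes, and 400 to 1455 and 318 to 514 against both, and 17 of the 24 omissions moved the higher count by over 1.5 times. The cause of these changes was not tested. No direction of the 85 followed genes reversed without DL.reuteri 3, and in all 24 livers only Psmd6 did, to a log2 difference of -0.056 under Ballgown's term. These genes were chosen from the same values, so their stable directions are no support for them. Of all 12142 genes, 1881 had a different sign with and without DL.reuteri 3.

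Rats of the 3 groups share replicate numbers, but no source says that a number marks a cage or batch. The 24 same-number pairs correlated between -0.39 and 0.60 (median 0.10), with 12 over 0.1 and 4 livers closest to one of their own number. The 168 pairs of other numbers correlated between -0.60 and 0.67 (median 0.01), with 62 over 0.1. With a replicate block limma called 1425 genes higher and 255 lower without DL.reuteri 3, and 34 and 51 in all 24 livers. Depth was unknown, and genes under about 1 FPKM, such as Sult4a1 in DL.reuteri livers, are the least precise.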
